A study of Mus musculus with 12 samples.

Results

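Matricellular proteins are secreted into the extracellular matrix, where they bind receptors, growth factors and structural fibres rather than bearing load themselves. In arteries several, though not all, are known for being scarce or restricted in the resting wall. Smooth muscle cells, fibroblasts and recruited macrophages produce these during injury and repair. Many of them are targets of TGF-beta, of the mechanosensitive YAP and SRF pathways, or both, and many signal to cells through integrins.

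The genes of 10 such proteins, with the fibre-forming fibronectin (Fn1) counted among them, were followed in mouse aorta: Tnc, Postn, Fn1, Thbs1, Thbs2, Cthrc1, Spp1, Sparc, Ctgf and Cyr61. They were found by gene name in the array files, where 12 of 55681 probes, and 10 of 34797 gene names, belonged to them. The genes were chosen by name, with their measured day 3 minus before differences on these arrays in view, so those differences are described without a p for any of the 10, and their counts of calls stand only beside the share of all genes. For the 10 genes, p-values are given for genotype differences and for the interaction of genotype and challenge. These comparisons use the same arrays as the differences in view, and the interaction is made of those differences. Their p-values are therefore not independent of how the genes were chosen.

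The series is part of a study of aortic dissection (AD), and compared the aortic transcriptome before and during a challenge that leads to AD in mice. Total aortic RNA was hybridised to 12 one-colour microarrays, 3 for each of 4 groups. WT mice before challenge and WT mice at day 3 of challenge were homozygous for a floxed Socs3 allele (Socs3fl/fl) and lacked Cre. The other 2 groups, labelled smSocs3-KO, were Socs3fl/fl mice that carried the SM22-Cre transgene, again before challenge or at day 3. All were male, with a strain label of 129S5/SvEvBrd, C57BL6 and SJL, and the methods give an age of 11 to 14 weeks. The challenge combined BAPN, which blocks the crosslinking of collagen and elastin by lysyl oxidase, at 150 mg/kg/day, with angiotensin II (AngII), a pressor hormone, at 1000 ng/kg/min, and both were infused by minipump. SM22-Cre acts through the promoter of a smooth muscle gene, so other cells of the aortic wall are meant to keep Socs3, which was not tested. The RNA came from whole tissue, in which fewer cells of a type and less RNA per cell cannot be told apart. The labels do not say that the arrays of a group came from separate mice, so p-values measure the spread between these samples.

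Values are log2 processed signals relative to the 75th percentile of their array, and a value of 0 is therefore the 75th percentile and each step of 1 a doubling. Between 55.4% and 61.2% of spots per array were well above background, and arrays of a group correlated with r from 0.964 to 0.992. A probe was used if at least 1 group had it well above background on each of its 3 arrays, which held for 32288 probes of 22766 genes, including all 12 probes of the 10 matricellular genes. Socs3 was not lower on the arrays labelled smSocs3-KO: it lay between 0.24 and 1.46 against 0.30 to 0.75 in WT before challenge, and between 2.28 and 4.13 against 0.64 to 2.30 in WT at day 3. Whether its probe lies in the deleted stretch was not tested. Slide 1 carried the 6 WT arrays and 1 smSocs3-KO array (before challenge, replicate 1), and slide 2 the remaining 5 smSocs3-KO arrays.

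The promoter ends of Tnc and Postn are shown because these 2 genes, which had the lowest smSocs3-KO minus WT differences of the 10 at day 3, carry the same TATA-like element at nearly the same distance from 1 of their annotated starts. Each gene had 2 RefSeq start windows, and in both genes the other window held none of the motifs searched. The sequences are the 120 bases before the start that has the element, on GRCm38.p6, 5′ to 3′ on the strand of the gene, with TATATAA in capitals.
Tnc, chr4:64046937-64047056, minus strand: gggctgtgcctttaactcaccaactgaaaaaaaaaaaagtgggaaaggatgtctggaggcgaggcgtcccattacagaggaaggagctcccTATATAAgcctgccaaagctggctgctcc
Postn, chr3:54360987-54361106, plus strand: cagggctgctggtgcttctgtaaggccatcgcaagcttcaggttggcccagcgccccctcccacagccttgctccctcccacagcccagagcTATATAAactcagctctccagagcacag
The element lay 29 to 23 bases before the start in Tnc and 28 to 22 bases before it in Postn. It was chosen after these sequences had been read. On either strand it was present in 3.04% of 32851 windows of 250 bases before a start, and in 1.62% of the 120-base windows.

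Windows were available for 6 of the 10 genes, 9 in all, and TATATAA was in 2 of them. CATTCC, the core recognised by the TEAD partners of YAP, was in 1 of the 9, that of Cyr61, and in 12.6% of all windows. TTCNNNGAA, the form of a Stat site, and TGANTCA, the form of an AP-1 site, were in 0 of the 9, against 7.02% and 6.75% of all windows. These are matches of letters on both strands, and no overlap between the motifs was examined.

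Tnc values rest on the following 60-base probe, printed as the array files give it and with no part in capitals. Its mm9 position, chr4:63674248-63675011, spans 764 bases of the genome, so the probe crosses a splice junction.
Tnc probe: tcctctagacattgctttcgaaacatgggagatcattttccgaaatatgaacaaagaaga

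In WT aorta, the day 3 values of 8 of the 10 genes lay above all values before challenge, beside 20.7% of all genes, and the largest differences were those of Spp1, Cthrc1, Thbs1 and Tnc. On the arrays labelled smSocs3-KO, Cthrc1, Spp1, Thbs1 and Fn1 were higher at day 3 without overlap, beside 14.1% of all genes, whereas Tnc and Postn overlapped with their values before challenge. At day 3, Postn and Sparc were lower on every smSocs3-KO array than on every WT array, beside 12.7% of all genes. No genotype difference of a matricellular gene passed the test after adjustment over all genes.

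**Figure D1:**
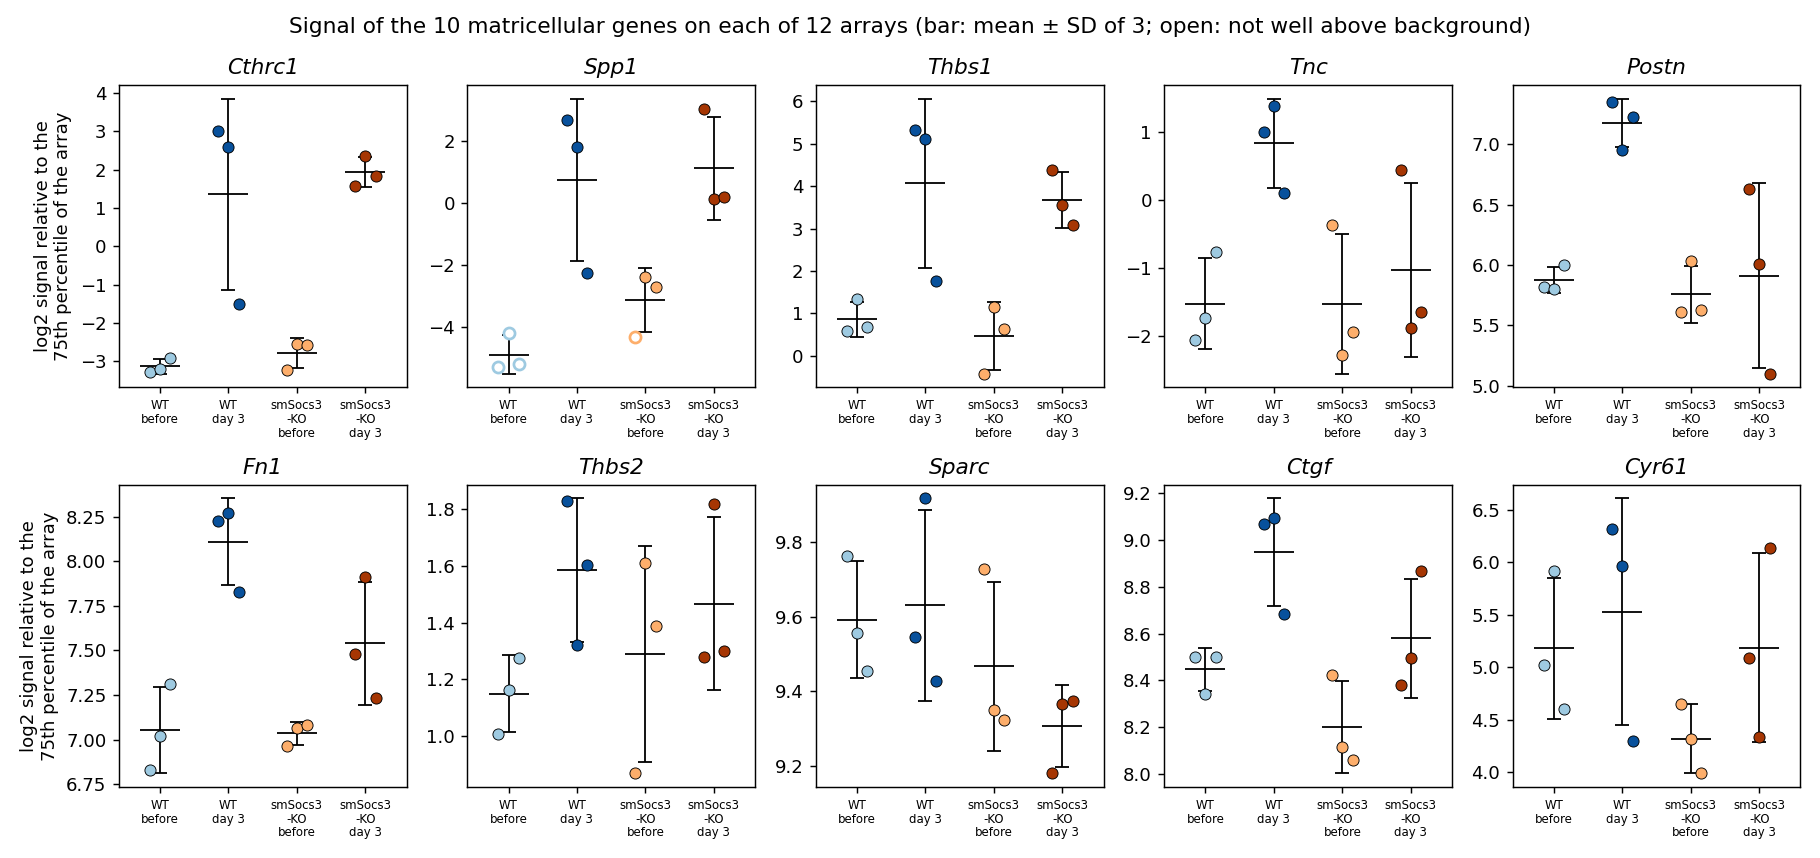
Each panel plots, for 1 gene, the log2 signal relative to the 75th percentile of the array on each of 12 arrays, with the mean and SD of 3 arrays per group; open points were not well above background. Cthrc1, Spp1 and Thbs1 are high on 2 of 3 WT arrays at day 3 and on all 3 smSocs3-KO arrays at day 3, and Postn at day 3 is between 6.96 and 7.35 in WT and between 5.10 and 6.63 in smSocs3-KO.

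Tnc encodes tenascin C, a hexameric glycoprotein that loosens the adhesion of cells to fibronectin. In WT it was at -2.07, -1.74 and -0.77 before challenge and at 1.01, 1.38 and 0.10 at day 3. In smSocs3-KO it was at -0.37, -2.29 and -1.94 before challenge and at 0.44, -1.89 and -1.65 at day 3. The WT groups did not overlap, whereas 2 of the 3 smSocs3-KO values at day 3 lay within the range before challenge. The difference between day 3 and before was 2.36 (SE 0.68) in WT, which is 5.12-fold, and 0.50 (SE 0.68) in smSocs3-KO.

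The high smSocs3-KO value at day 3 was that of replicate 2, and without this array the smSocs3-KO difference of Tnc was -0.24. The high value before challenge, -0.37, was that of the only smSocs3-KO array on slide 1. Within slide 2, where -2.29 and -1.94 before challenge stood below -1.89, -1.65 and 0.44 at day 3, the difference was 1.08 (SE 0.70). The other probe of Tnc, at chr4:63643728-63643787 on mm9, ran from -2.86 to -1.97 before challenge and from -0.71 to 0.42 at day 3 in WT. In smSocs3-KO it ran from -2.97 to -2.00 before challenge and from -2.87 to -0.88 at day 3. This probe placed the arrays of each day 3 group in much the same way, with differences of 2.42 (SE 0.50) in WT and 0.45 (SE 0.50) in smSocs3-KO.

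Postn encodes periostin, an adhesion protein of collagen-rich tissue that binds integrins and assists collagen crosslinking. It was measured by a probe at chr3:54194840-54194899 on mm9. In WT it was at 5.82, 5.80 and 6.00 before challenge and at 7.35, 6.96 and 7.23 at day 3. On the smSocs3-KO arrays it was at 5.61, 6.03 and 5.63 before challenge and at 6.63, 6.01 and 5.10 at day 3. All 3 WT arrays were higher at day 3, and the smSocs3-KO arrays at day 3 spread to both sides of the values before challenge. The difference was 1.31 (SE 0.32) in WT, or 2.47-fold, and 0.16 (SE 0.32) in smSocs3-KO, where it was -0.20 without replicate 2 at day 3.

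Fn1 encodes fibronectin, the fibre-forming glycoprotein to which tenascin C, periostin and many integrins bind. In WT it was at 6.83, 7.02 and 7.31 before challenge and at 8.23, 8.27 and 7.83 at day 3. In smSocs3-KO, Fn1 was at 6.96, 7.06 and 7.08 before challenge and at 7.48, 7.91 and 7.23 at day 3. The groups did not overlap in either genotype. The difference was 1.05 (SE 0.21) in WT and 0.50 (SE 0.21) in smSocs3-KO.

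Thbs1 encodes thrombospondin 1, a platelet and stromal glycoprotein that activates latent TGF-beta and binds CD47. In WT it was at 0.58, 1.34 and 0.68 before challenge and at 5.32, 5.12 and 1.76 at day 3. On the smSocs3-KO arrays it was at -0.42, 1.15 and 0.63 before challenge and at 4.38, 3.56 and 3.09 at day 3. Every array at day 3 was above every array of the same genotype before challenge, and WT replicate 4 was the lowest of the 6 at day 3. The difference was 3.20 (SE 0.81), or 9.20-fold, in WT and 3.22 (SE 0.81) in smSocs3-KO.

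Thbs2 encodes thrombospondin 2, a related inhibitor of angiogenesis. In WT it was at 1.01, 1.16 and 1.28 before challenge and at 1.83, 1.32 and 1.60 at day 3. The smSocs3-KO arrays had 0.87, 1.61 and 1.39 before challenge and at 1.28, 1.82 and 1.30 at day 3. The WT groups were just apart and the smSocs3-KO groups overlapped. The differences were 0.44 (SE 0.23) and 0.18 (SE 0.23).

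Cthrc1 encodes a secreted protein with a short collagen-like stretch, known from injured arteries, where it was linked to cell migration. In WT it was at -3.27, -3.21 and -2.91 before challenge and at 3.01, 2.58 and -1.51 at day 3. On the smSocs3-KO arrays it was at -3.24, -2.54 and -2.57 before challenge and at 1.58, 2.36 and 1.85 at day 3. The groups before and at day 3 were apart in both genotypes, with the 3 smSocs3-KO arrays close together and WT replicate 4 far below the other WT arrays. The difference was 4.49 (SE 0.91), or 22.5-fold, in WT and 4.71 (SE 0.91) in smSocs3-KO.

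Spp1 encodes osteopontin, a phosphorylated integrin and CD44 ligand made by macrophages and by smooth muscle cells in diseased arteries. It was not well above background on any WT array before challenge, where it was at -5.30, -4.18 and -5.19, nor on smSocs3-KO replicate 1, at -4.32. The other smSocs3-KO arrays before challenge were at -2.40 and -2.71. At day 3 it was at 2.66, 1.79 and -2.25 in WT and at 3.02, 0.12 and 0.18 in smSocs3-KO. Values at day 3 lay above those before challenge in both genotypes. In WT, mean Spp1 was 32.5-fold higher at day 3 with dim arrays raised to the lowest signal well above background on that array. Replicate 2 before challenge, already above that signal, kept its own value. The figure is no lower limit over the settings, since another background correction (normexp) gave a WT difference of 2.97 (SE 0.86). The smSocs3-KO difference was 4.25 (SE 1.17), with 1 of its 3 arrays before challenge not well above background.

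WT replicate 4 at day 3 thus decided the size of 3 WT differences. Without it, the WT difference was 5.92 for Cthrc1 and 4.35 for Thbs1, and Spp1 was 91.3-fold higher at day 3 with dim arrays raised as above. The WT difference of Tnc moved less, from 2.36 to 2.72. The same array had the lowest sums of macrophage markers and of proliferation markers among the WT arrays at day 3.

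Sparc encodes osteonectin, a collagen-binding protein that aids collagen assembly. In WT its values ran from 9.45 to 9.76 before challenge and from 9.43 to 9.92 at day 3. In smSocs3-KO they ran from 9.32 to 9.73 and from 9.18 to 9.37. Both genotypes overlapped between the time points, with differences of 0.04 (SE 0.18) and -0.16 (SE 0.18).

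Ctgf and Cyr61, named Ccn2 and Ccn1 in RefSeq, encode CCN proteins, which bind integrins and growth factors and are standard readouts of YAP. Ctgf was at 8.50, 8.34 and 8.50 in WT before challenge and at 9.07, 9.10 and 8.68 at day 3. The smSocs3-KO arrays had Ctgf at 8.43, 8.12 and 8.06 before challenge and at 8.38, 8.49 and 8.87 at day 3. The WT groups did not overlap and the smSocs3-KO groups did, with differences of 0.50 (SE 0.19) and 0.38 (SE 0.19).

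Cyr61 varied more between arrays of a group. It ran from 4.60 to 5.92 in WT before challenge and from 4.30 to 6.32 in WT at day 3, and from 3.99 to 4.65 before challenge and from 4.34 to 6.14 at day 3 in smSocs3-KO. Day 3 overlapped with before challenge in both genotypes, and the differences were 0.35 (SE 0.57) in WT and 0.87 (SE 0.57) in smSocs3-KO.

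Counted together, 4 of the 10 genes (Postn, Cthrc1, Spp1 and Fn1) had an adjusted p under 0.05 in the WT response in limma, beside 4.68% of all genes. In the smSocs3-KO response Cthrc1 alone did, beside 2.45% of all genes. At the threshold of the study's methods, p under 0.01 and more than 4-fold, the genes were Tnc, Cthrc1, Thbs1 and Spp1 in WT, beside 1.28% of all genes, and Cthrc1, Thbs1 and Spp1 in smSocs3-KO, beside 1.63%. Groups did not overlap for 8 genes in WT, all higher, beside 20.7% of all genes higher, and for 4 in smSocs3-KO, beside 14.1%. The median difference over the 10 genes was 1.18 in WT and 0.50 in smSocs3-KO, and that over all genes was -0.02 and -0.06. Since these responses were in view when the genes were chosen, nothing is read from these counts. The count in WT was 7 without WT replicate 4 at day 3, when 3626 of all genes were called. It was 0 without any other single WT array, when 0 to 3 of all genes were called.

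**Figure D2:**
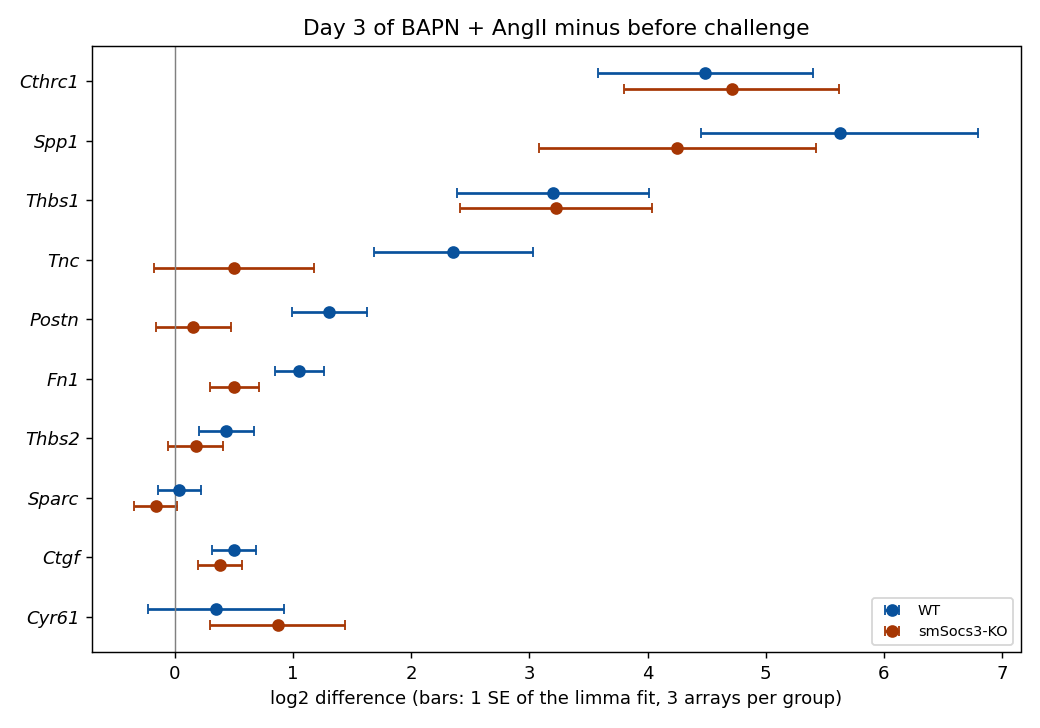
Log2 difference, day 3 minus before challenge, for each gene, in WT (blue) and on the arrays labelled smSocs3-KO (orange); bars are 1 SE of the limma fit with 3 arrays per group. Cthrc1 and Thbs1 have nearly equal differences in both genotypes (4.49 and 4.71; 3.20 and 3.22), and Tnc (2.36 and 0.50) and Postn (1.31 and 0.16) do not. For Spp1 in WT the fitted value is shown, with all 3 arrays before challenge not well above background.

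The genotype comparison before challenge asked whether the resting aorta differed. Limma called 0 of the 10 genes, beside 0.0264% of all genes, and the adjusted p was 0.99995 for each of the 10. The groups overlapped for every one of them, against 11.1% of all genes without overlap. Spp1 was not well above background on any of the 3 WT arrays and on 1 of the 3 smSocs3-KO arrays, and its fitted interval, -0.85 to 4.34, includes 0. Cyr61 differed by -0.86 (95% interval -2.13 to 0.40) and the other 8 genes by -0.41 to 0.35. At unadjusted p under 0.05, 1002 genes stood out in this comparison, none of the 10 among them.

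At day 3, the median smSocs3-KO minus WT difference was -0.36 over the 10 genes and -0.08 over all genes. The day 3 values were in view when the genes were chosen, so nothing is read from these medians. Limma called 0 of the 10 genes, beside 1.11% of all genes. Postn was 0.416 times the WT level, a difference of -1.27 (95% interval -1.97 to -0.57, adjusted p = 0.0897 in limma). Its 2 groups did not overlap, and neither did those of Sparc, beside 12.7% of all genes lower without overlap. Sparc differed by -0.32 (95% interval -0.72 to 0.08, adjusted p = 0.410 in limma), and its other probe, at chr11:55208003-55208061 on mm9, by -0.85 (adjusted p = 0.0894). That probe already differed by -0.58 (SE 0.21) before challenge, with an interaction of -0.28. The first probe differed by 0.07 with slide as a term, by 0.01 with quantile normalization and by 0.03 in the authors' table.

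Tnc was 0.275 times the WT level at day 3, a difference of -1.86 (95% interval -3.35 to -0.37, adjusted p = 0.220 in limma), and smSocs3-KO replicate 2 lay among the WT arrays. Its other probe gave -2.01 (adjusted p = 0.0850 in limma). Fn1 differed by -0.57 (95% interval -1.03 to -0.11, adjusted p = 0.224 in limma). At unadjusted p under 0.05, Postn, Tnc and Fn1 stood out among 3687 genes.

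Cthrc1 (0.57, 95% interval -1.44 to 2.57), Spp1 (0.37, -2.22 to 2.96) and Thbs1 (-0.39, -2.18 to 1.40) had intervals that span a several-fold difference in either direction, so these data do not show whether the genotypes had like levels. Without WT replicate 4 at day 3 their differences were -0.87, -1.12 and -1.54, so the sign for Cthrc1 and Spp1 turned without that array. It also turned with slide as a term (-0.12 for Cthrc1 and -1.39 for Spp1), and for Spp1 without smSocs3-KO replicate 2 (-0.58). Ctgf differed by -0.37, Cyr61 by -0.34 and Thbs2 by -0.12, with adjusted p from 0.361 to 0.850 in limma.

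No slide held both genotypes at day 3, so genotype and slide can be separated only by a fit with slide as a fixed term, which rests on the single smSocs3-KO array of slide 1. In that fit the day 3 difference was -1.48 (SE 0.59, adjusted p = 0.279) for Postn, -0.68 (SE 0.38) for Fn1 and -0.12 (SE 1.09, adjusted p = 0.966) for Tnc. With slide as a term, the difference of the brighter Tnc probe was thus close to 0 with a wide error. That of Postn was as large as without it. On the single smSocs3-KO array of slide 1 the brighter Tnc probe was at -0.37, against -2.29 and -1.94 before challenge on slide 2. The other Tnc probe was at -2.00 there, against -2.97 and -2.32, and was not fitted with slide as a term. Without smSocs3-KO replicate 2, the difference was -1.62 for Postn (adjusted p = 0.0239 in limma), which was then called, and -2.60 for Tnc (adjusted p = 0.0697).

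**Figure D3:**
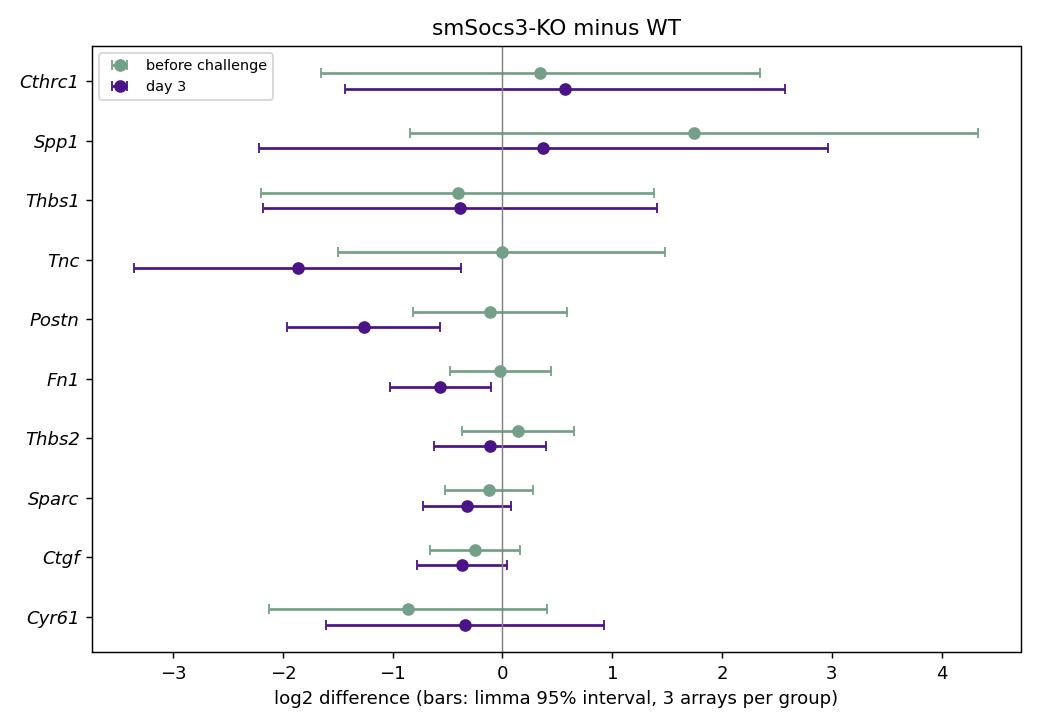
Log2 difference between arrays labelled smSocs3-KO and WT for each gene, before challenge and at day 3; bars are the 95% interval of the limma fit with 3 arrays per group. At day 3 the intervals of Tnc (-3.35 to -0.37), Postn (-1.97 to -0.57) and Fn1 (-1.03 to -0.11) lie below 0, before adjustment over all genes, and before challenge all 10 intervals include 0.

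The interaction, which is the smSocs3-KO response minus the WT response, tested whether the challenge acted differently in the genotypes. For the 10 genes it is made of the responses in view when they were chosen, so their p-values here are not independent of that choice. Limma called 0 of all 22766 genes and 0 of the 10, with 1215 genes at unadjusted p under 0.05, of which Postn was 1. It was -1.15 for Postn (95% interval -2.14 to -0.16, adjusted p = 0.914) and -1.86 for Tnc (95% interval -3.96 to 0.25, adjusted p = 0.957). It was -0.55 for Fn1, 0.22 for Cthrc1 and 0.02 for Thbs1, and the intervals of these 3 include 0. None is given for Spp1, which was not well above background in WT before challenge. The interval for Cthrc1, -2.61 to 3.06, leaves room for a difference of more than 4-fold in either direction.

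Across the 12 arrays, some pairs of the genes varied alike. Cthrc1 and Thbs1 had a Pearson r of 0.950, Thbs1 and Spp1 0.940, and Cthrc1 and Spp1 0.934. Tnc and Postn had an r of 0.782 and Cthrc1 and Postn 0.430, whereas Fn1 had 0.833 with Thbs1, 0.804 with Cthrc1, 0.787 with Postn and 0.728 with Tnc. All points share the 4 groups and the arrays, so these values describe how the groups are laid out. Of 14117 genes with a symbol, those most like Cthrc1 were C3ar1 (r = 0.989), a complement receptor of myeloid cells, Col12a1 (0.978), a fibril-associated collagen, and Agpat4 (0.975). Those most like Tnc were Lgals1 (0.925), a galectin, Bin1 (0.914) and Pdgfa (0.913), a mitogen for mesenchymal cells. Those most like Postn were Mphosph9 (0.957), Ifngr2 (0.952), a chain of the interferon-gamma receptor, and Igfbp2 (0.949), a binding protein of insulin-like growth factors.

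Of 24 other matricellular genes, 19 were measured, and 4 of them rose in the WT response while none fell, beside 3.58% of all genes that rose and 1.09% that fell. Wisp1, a CCN protein, rose by 2.40 (SE 0.47, adjusted p = 0.0329 in limma), and Wisp2, another, by 1.25 (adjusted p = 0.0279). The galectins Lgals1 and Lgals3 rose by 1.05 (adjusted p = 0.0401) and 1.19 (adjusted p = 0.0329). In smSocs3-KO, where 1.71% of all genes rose, Wisp2 rose by 1.61 (adjusted p = 0.00618) and Comp, the cartilage thrombospondin, by 1.77 (adjusted p = 0.0495). With slide as a term Wisp2 was still called and Comp was not (adjusted p = 0.161). In the smSocs3-KO response of the main fit, Wisp1, Lgals1 and Lgals3 were not called. The median over the list was 0.07 in WT and 0.61 in smSocs3-KO. With any single WT array other than day 3 replicate 4 left out, limma called 0 to 3 of all genes in the WT response, so every WT call named here rests on those 5 arrays.

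At day 3, 2 of these 19 genes were higher on the smSocs3-KO arrays, beside 0.958% of all genes, opposite in sign to Tnc and Postn. Tnxb, which encodes tenascin X of loose connective tissue, was higher by 4.46 (SE 0.65, adjusted p = 0.0160 in limma), with group means of 2.77 in smSocs3-KO and -1.70 in WT. Thbs3, a pentameric thrombospondin, was higher by 0.90 (SE 0.15, adjusted p = 0.0257). With slide as a term they were higher by 3.88 and 0.75, and neither passed (adjusted p = 0.239 and 0.258). Their interactions did not pass either, at 3.70 for Tnxb (adjusted p = 0.705) and 0.76 for Thbs3 (adjusted p = 0.751). Over the list the day 3 median was 0.38, beside -0.08 over all genes.

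Of 21 receptors, all measured, 1 rose in each genotype, a share near the 3.58% and 1.71% of all genes that rose. Calr, calreticulin, a chaperone that also binds thrombospondin at the cell surface, rose by 0.69 in WT (adjusted p = 0.0431 in limma), and Cd47, the receptor of thrombospondin 1, rose by 0.88 in smSocs3-KO (adjusted p = 0.0483), a call lost with slide as a term (adjusted p = 0.149). Of 23 regulators, 21 were measured, and 1 rose in WT, beside 3.58% of all genes. Scx, a transcription factor of tendon and matrix-producing cells, rose by 2.13 (SE 0.40, adjusted p = 0.0328). In smSocs3-KO the Scx difference was 0.52 (adjusted p = 0.433), and at day 3 Scx differed between the genotypes by -1.35 (adjusted p = 0.139). Of 20 target genes of TGF-beta, YAP and SRF, 19 were measured, and 1 rose in WT, beside the same 3.58% of all genes. It was Ltbp2, a fibrillin-binding matrix protein, which rose by 1.06 (adjusted p = 0.0400 in limma). None of the 3 lists held a gene called between genotypes at either time or in the interaction. Their medians in the challenge responses were between 0.17 and 0.52, beside -0.02 over all genes in WT and -0.06 in smSocs3-KO. No list was tested as a whole.

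Markers of other cells in the aorta moved beside these genes. Summed linear signals of 8 macrophage markers, in multiples of the 75th percentile of the array, were 40.0 to 41.6 in WT before challenge and 47.1 to 122 at day 3. In smSocs3-KO they were 39.2 to 61.6 and 126 to 130.5. All 8 were well above background on every array, and limma called 5 of them, Cd68, Cd14, Mrc1, Ctss and Cd163, higher at day 3 in smSocs3-KO and 0 in WT. Of all genes, 1.71% and 3.58% were called higher. Without overlap, 7 of the 8 were higher in each genotype, beside 14.1% of all genes in smSocs3-KO and 20.7% in WT. Their median difference was 1.66 in smSocs3-KO and 1.07 in WT, and 0 were called in the interaction. The sum was 47.1 on WT replicate 4 and 85.4 and 122 on the other WT arrays at day 3, the order in which Cthrc1, Thbs1, Spp1 and Cyr61 also stood. Tnc, Postn, Fn1, Thbs2, Sparc and Ctgf stood in other orders.

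Sums of 7 proliferation markers were 1.69 to 2.46 and 2.03 to 2.42 before challenge in WT and smSocs3-KO. At day 3 they were 8.45 on WT replicate 4, 63.2 and 61.7 on the other WT arrays, and 6.91 to 23.8 in smSocs3-KO. Of the 7, limma called 7 higher in WT and 1, Cdk1, in smSocs3-KO, beside 3.58% and 1.71% of all genes. All 7 were higher without overlap in each genotype, beside 20.7% of all genes in WT and 14.1% in smSocs3-KO, and 0 were called in the interaction. With any single WT array other than day 3 replicate 4 left out, limma called 0 to 3 of all genes in the WT response. At day 3 replicate 2 had the highest sum of the smSocs3-KO arrays, as it had the highest Tnc, Postn, Thbs1 and Spp1. It also had the lowest Cthrc1, Thbs2, Sparc and Ctgf of these arrays, and middle values of Fn1 and Cyr61. Before challenge, 1 to 3 of the 7 were not well above background on each array.

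Sums of 8 smooth muscle markers, which include Myh11 and Acta2, were 2674 to 2963 in WT before challenge and 2102 to 2640 at day 3, and 2369 to 3551 and 1709 to 2024 in smSocs3-KO. Smooth muscle markers were thus present at high signal on all arrays, as the label aorta implies. Sums of 8 fibroblast markers were 761 to 894 in WT before challenge and 737 to 862 at day 3. In smSocs3-KO they were 796 to 854 and 896 to 1231. At day 3, Dpt and Pi16 were called higher in smSocs3-KO than in WT, beside 0.958% of all genes. With slide as a term no gene was called in this comparison, these included (0 of 22766 in limma, 3640 at unadjusted p under 0.05). Sums of 5 platelet markers were 12.8 to 15.8 and 22.4 to 26.0 in WT before and at day 3, and 12.4 to 22.9 and 19.5 to 37.2 in smSocs3-KO, with 0 of 5 called in either response. Sums of 6 mesothelial markers were 3.07 to 22.7 over the WT arrays and 37.7 to 76.4 over the smSocs3-KO arrays. The part of these cells in the values of the matricellular genes was not tested.

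**Figure D4:**
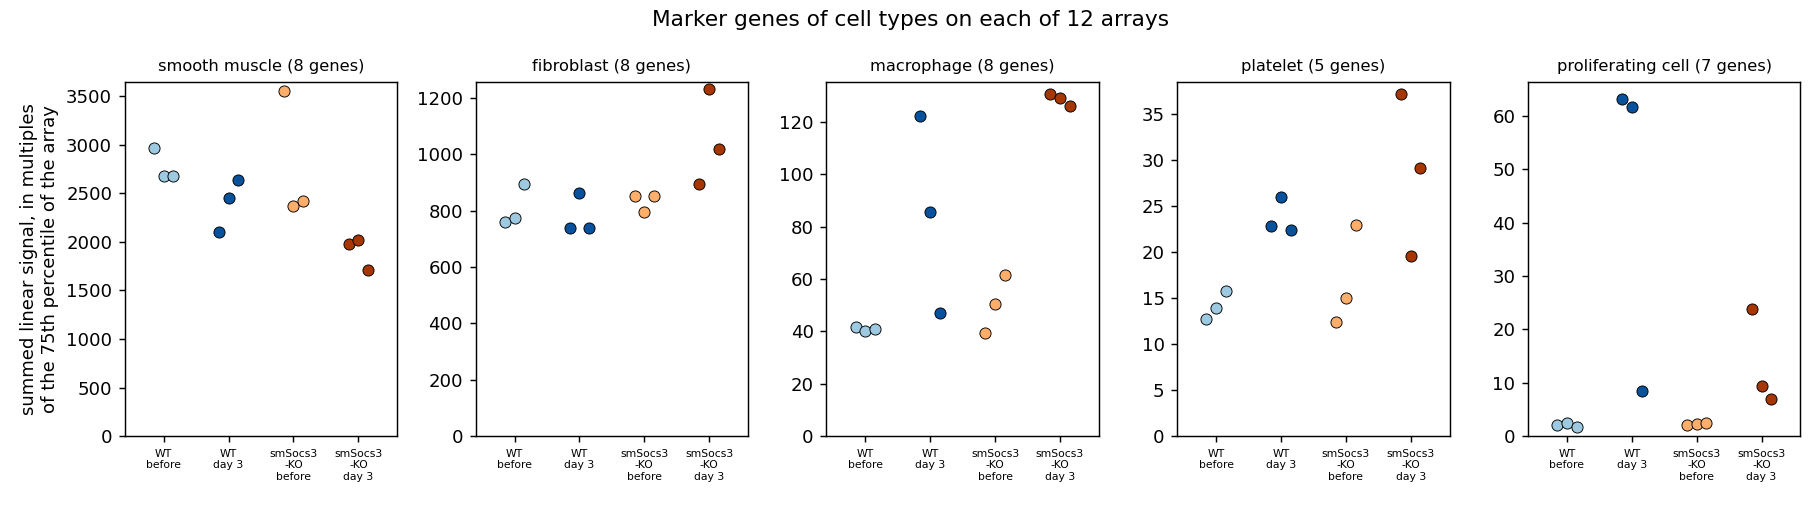
Summed linear signal of marker genes, in multiples of the 75th percentile of the array, for 5 cell types on each of 12 arrays; axes start at 0. Macrophage sums at day 3 are 47.1 to 122 in WT and 126 to 130.5 in smSocs3-KO, proliferation sums are 8.45 to 63.2 and 6.91 to 23.8, and smooth muscle sums are 2102 to 2640 and 1709 to 2024.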

How the data were processed

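Aortic RNA was labelled with Cy3 and hybridised to 12 one-colour Agilent arrays of 62976 spots. The authors deposited the scanner output, in which the processed intensity of a spot is background-subtracted on a linear scale, and a quantile-normalized table of processed intensity for the same arrays, used as an alternative. The submitters' processing notes name Feature Extraction 9.5.1.1, and the file headers name 10.7.1.1. The scanner software marks a spot as well above background at 13 background SDs over the local background.

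After removal of controls and of spots marked as outliers, log2 processed signals were averaged over the spots of a probe and expressed relative to the 75th percentile of the array. The brightest kept probe stood for a gene. Limma 3.58.1 in R 4.3.3 fitted 4 group means, with Benjamini-Hochberg adjustment over 22766 genes, and the model was tested on simulated data. Genes were called at an adjusted p under 0.05. Positions of probes are those of the files (mm9), and promoter sequences are from RefSeq (GRCm38.p6). Alternatives covered background correction, normalization, the filter, probes, variance moderation, the arrays fitted, slide, replicate number and each array left out. The members and gene lists were chosen with earlier results of these data known. Named from each list were all called genes where 5 or fewer, and, as genes of like pattern, the 3 with the highest r. Alternatives for genes of the lists were added after their values had been seen.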

Additional observations from a re-analysis of the deposited data

How the results depend on the processing

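No alternative reversed a called difference. The count of the 10 genes called in the WT response, 4, was 2 with quantile normalization and 2 with the authors' table (both times Cthrc1 and Spp1), 0 with no filter on dim probes, 0 with only the arrays compared, 6 with slide as a block, 6 with trend and robust moderation, 5 with the mean of probes, 5 with the other probe and 0 to 7 with each array left out. Without WT replicate 4 at day 3 it was 7. With normexp background correction and with only probes above background on all 12 arrays it was 4, with Thbs1 in place of Spp1. Calls over all genes in the WT response moved as well, from 1065 in the main fit. They were 614 with the authors' table, 10 of 34794 with no filter and 0 with only the arrays compared. They were 2368 with slide as a block, 1844 with trend and robust moderation and 3626 without WT replicate 4 at day 3. The count in smSocs3-KO, 1, was 2 with normexp background correction, 2 with trend and robust moderation, 2 with only the arrays compared, 0 with no filter, 0 with slide as a block, 1 within slide 2 and 0 with each array left out. Calls over all genes in that response were 557 in the main fit, 825 with normexp and 818 with trend and robust moderation. They were 398 with only the arrays compared, 173 of 34794 with no filter, 52 with slide as a block and 67 within slide 2. The genotype count at day 3 was 0 to 1 with arrays left out, the 1 being Postn without smSocs3-KO replicate 2, and 0 in every other setting, as were the counts before challenge and in the interaction in all settings.

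Replicate numbers are shared between groups, and same-numbered arrays deviated from their group means with r from -0.403 to 0.464. With 3 arrays per group, these values cannot decide whether same-numbered arrays share more than a number. With the replicate block, 0 of the 10 genes were called in WT and 0 in smSocs3-KO, and all genes called fell from 1065 to 0 and from 557 to 2.

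Over all alternatives, the Postn difference at day 3 ran from -1.62 to -0.86 and that of Tnc from -2.60 to -0.12. Among genes of the lists, Wisp2 in smSocs3-KO stayed called in 15 of 17 alternatives and Tnxb in 12 of 16, and the WT calls of Wisp1, Wisp2, Lgals3 and Scx in 8 of 16, of Lgals1, Calr and Ltbp2 in 6 of 16, Thbs3 in 8 of 16, Comp in 5 of 17 and Cd47 in 3 of 17. Where calls were lost, the cause was not tested. Signal over background limits Spp1 before challenge, and 3 arrays per group limit the precision throughout.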
